A study of Mus musculus with 19 samples.

Results

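The mouse genome encodes 3 Hedgehog ligands, desert hedgehog (Dhh), Indian hedgehog (Ihh) and sonic hedgehog (Shh), and their transcripts were followed in adult ovaries from which Dhh, Ihh or both had been deleted. Every probe set annotated to one of these genes and to no other was taken, which gave 2 probe sets for Dhh, 1 for Ihh and 2 for Shh, or 5 probe sets of the 34945 that were assigned a single gene (3 of 18193 genes). None was lost to a filter, since every single-gene probe set was tested. The groups were ovaries lacking Dhh (Dhh_KO, here Dhh KO, n = 4 arrays), ovaries lacking Ihh (Ihh_KO, here Ihh KO, n = 4), ovaries lacking both (Ihh_Dhh_dKO, here DKO, n = 3), and controls labelled Ihh_Dhh_dhet, which were heterozygous for both genes (n = 8). All mice were 2 months old, and total RNA of the ovary was measured. The controls therefore carry 1 deleted allele of each gene and are not wild type. The deletion is described as specific to the ovary. The sources used here do not give the Cre driver, the deleted exons, the alleles of the other ligand in the single knockouts or whether each array is a separate animal, so p-values measure the spread between these samples, which may in part be technical.

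Hedgehog ligands are secreted proteins that are cleaved and modified with lipid in the cell that makes them, released with the help of Dispatched and Scube proteins, and bound on the receiving cell by the receptor Patched 1. Binding relieves the inhibition of Smoothened, and Gli transcription factors then raise target genes that include Gli1, Ptch1 and Hhip, so that a fall in those transcripts is a common readout of less ligand. In the ovary Dhh and Ihh are made by granulosa cells of growing follicles and act on the surrounding mesenchyme that gives rise to theca cells. Dhh is also the ligand of Sertoli cells in the testis and of Schwann cells in nerve, Ihh is best known from growing cartilage and gut, and Shh from the neural tube and limb bud.

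The promoter windows of the ligands are shown because the question asked of the data is whether the transcript of one ligand changes when the other is lost, and because a Gli site there would be the letters to look for. RefSeq windows (assembly GRCm38.p6, 250 bases before to 50 after the annotated start) matched 2 of the 3 members, Dhh and Ihh. Both are on the minus strand, and capitals mark the letters GGGCGG on either strand, the GC box bound by Sp-family factors. The Dhh window lies at chr15:98898491-98898790 and the Ihh window at chr1:74951623-74951922.
Dhh: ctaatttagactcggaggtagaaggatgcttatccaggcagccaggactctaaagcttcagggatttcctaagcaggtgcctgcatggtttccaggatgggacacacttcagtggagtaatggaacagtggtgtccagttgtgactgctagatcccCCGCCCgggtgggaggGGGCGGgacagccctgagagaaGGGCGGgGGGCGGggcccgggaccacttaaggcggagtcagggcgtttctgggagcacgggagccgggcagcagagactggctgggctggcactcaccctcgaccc
Ihh: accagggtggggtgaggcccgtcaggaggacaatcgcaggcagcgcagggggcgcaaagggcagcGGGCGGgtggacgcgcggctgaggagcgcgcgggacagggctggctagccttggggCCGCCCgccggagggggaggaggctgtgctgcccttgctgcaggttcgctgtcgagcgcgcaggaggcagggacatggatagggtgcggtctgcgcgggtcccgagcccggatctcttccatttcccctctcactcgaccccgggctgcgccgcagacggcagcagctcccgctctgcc
The Dhh window held 4 GC boxes and 12 CpG dinucleotides at 61.7% G+C, and the Ihh window held 2 GC boxes and 30 CpG dinucleotides at 72.7% G+C, with a median of 52.7% over the 32851 promoter windows of the table. A GC box was present in 35.7% of all those windows. Neither the Gli consensus GACCACCCA, present in 0.253% of all windows, nor its core CCACCCA, present in 9.30% and contained in the consensus, was found on either strand of either window. The letters AAGGTCA (NR5A1, 4.72% of windows) and TATAAA (the TATA box, 13.6%) were absent from both windows too. These matches describe letters in a short window and say nothing of binding.

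The values are deposited MAS5 signals in arbitrary units, scaled to the same trimmed mean on every array, and median signals per array ran between 101 and 159.9. The labels name no batch. The arrays were taken as 2 sets, DKO with controls 1 to 4 and the single knockouts with controls 5 to 8, a division that comes from earlier results of these data and matches the spiked BioC controls. Their 3'/5' ratio was 0.99 to 1.06 on DKO 1 to 3 and controls 1 to 4 (set 1) and 0.69 to 0.78 on the 8 single-knockout arrays and controls 5 to 8 (set 2). Controls of set 1 and of set 2 differed at 9391 of 34945 probe sets (26.9%), so each mutant group was set against the 4 controls of its own set. Control k and control k + 4 deviated together from their set means (correlation across probe sets 0.52 to 0.74, with -0.60 to 0.19 for other pairs), and the labels do not say whether they share a source. The array labelled Ihh KO 4 went against its label: its Dhh signal was 2.96, under all 4 Dhh KO arrays, and its Ihh signal was 108, over the other 3 Ihh KO arrays. Results for Ihh KO are given with and without that array.

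In Dhh KO ovaries the Dhh signal fell to 1.74% of the control mean on the stronger of its probe sets. Probe set 1434959_at gave signals of 13.2, 5.14, 18.8 and 25.4 in Dhh KO 1 to 4, against 811, 621, 1077 and 1085 in controls 5 to 8. All Dhh KO arrays lay far below every control, at the 5.4th to 16.0th percentile of all probe sets of their array, whereas controls lay at the 70.9th percentile or above. The 10th percentile of all signals was 7.02, and with no detection calls used here the low signals are not shown to be above background, so the percentage does not measure transcript left. The Dhh KO mean was 15.6 ± 8.57 (SD, n = 4) and the control mean 898 ± 225 (SD, n = 4). In limma's moderated test that left out the array labelled Ihh KO 4, the log2 difference was -5.37 (SE 0.32) and the adjusted p was 5.95e-08. With that array, whose Dhh signal of 2.96 widens the spread the groups share, the SE was 0.90 and the adjusted p 0.126, and an exact permutation test of 4 arrays against 4 gave p = 0.0286, the smallest it can give.

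The weaker Dhh probe set, 1422127_at, gave 63.5, 16.2, 8.99 and 7.84 in Dhh KO 1 to 4, against 86.2, 104, 79.6 and 70.4 in controls 5 to 8. All 4 Dhh KO arrays were below every control, but Dhh KO 1 came close to control 8. Its log2 difference was -1.87 (SE 0.37, limma adjusted p = 0.146), and -1.87 (SE 0.38, adjusted p = 0.175) without the array labelled Ihh KO 4. Its signals in controls 5 to 8 were low, at the 30.9th to 34.9th percentile of their arrays. The sources used here do not place its probes inside or outside the deleted exons, so it is no check of the deletion. In the fit of all arrays 0 of the 5 ligand probe sets passed an adjusted p of 0.05 in Dhh KO, where 0.0% of all probe sets did (0 by limma, with 3708 under 0.05 before adjustment). Leaving out the array labelled Ihh KO 4, the stronger Dhh probe set was the 1 probe set called among 34945 (0.00286%).

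**Figure D1:**
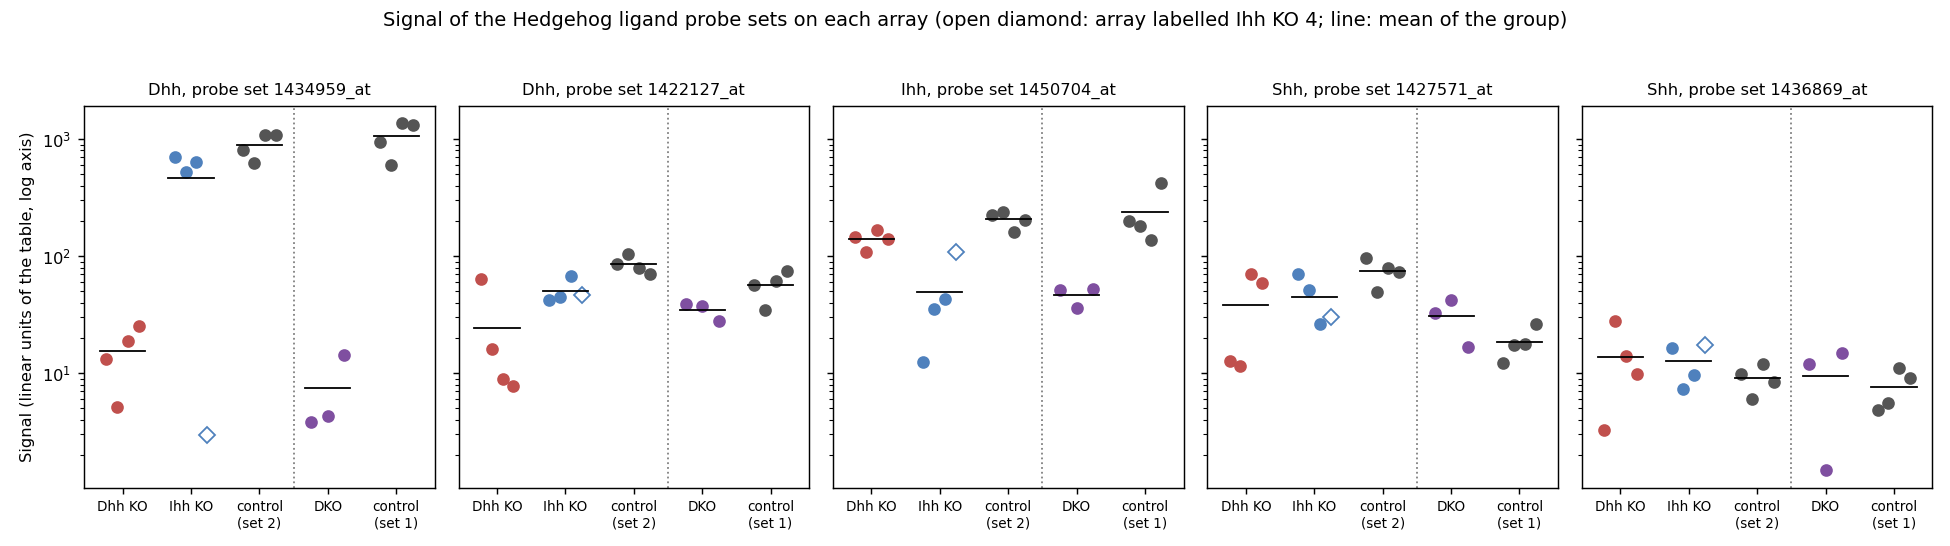
Signal (log axis, arbitrary units) of the 5 ligand probe sets on each of the 19 arrays, by group and set; points are arrays, lines are group means and the open diamond is the array labelled Ihh KO 4. Dhh 1434959_at lies at 25.4 or less on all Dhh KO and DKO arrays and at 606 or more on all controls, and Shh 1436869_at stays under 28 everywhere.

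In Ihh KO ovaries Ihh fell, to 14.6% of the control mean on the arrays labelled Ihh KO 1 to 3. The Ihh probe set, 1450704_at, gave 12.5, 35.1, 43.5 and 108 in Ihh KO 1 to 4, against 225, 238, 160.0 and 206 in controls 5 to 8. Every Ihh KO array was below every control, and the array labelled Ihh KO 4 was the highest of the group. The mean was 30.3 ± 16.0 (SD, n = 3) in Ihh KO 1 to 3 and 207 ± 34.1 (SD, n = 4) in controls. The log2 difference was -2.62 (SE 0.34, limma adjusted p = 0.00454) without the array labelled Ihh KO 4, and -2.18 (SE 0.40, adjusted p = 0.0464) with it. The exact permutation test of 4 arrays against 4 gave p = 0.0286, the smallest it can give. With all arrays the call was lost when control 5, 6 or 7 or Ihh KO 1, 2 or 3 was left out (log2 differences of -2.30 to -1.76, adjusted p 0.0543 to 0.177).

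The Ihh probe set was the 1 ligand probe set of 5 called in Ihh KO, both with all arrays, where 24 probe sets were called in all (0.0687%), and without the array labelled Ihh KO 4, where 106 were (0.303%). By p it ranked 4th of 34945 probe sets without that array. The total of 24 rested on single arrays: it was 926 without control 8, 106 without the array labelled Ihh KO 4, 7 without Ihh KO 1, 4 without Ihh KO 3 or control 7, 1 without Ihh KO 2 and 0 without control 5 or control 6. What was left of the Ihh signal stood at the 11.2th to 28.6th percentile of the arrays Ihh KO 1 to 3. Whether that remainder is transcript or background cannot be read from a signal alone, as the place of these probes in the deleted gene is likewise not given.

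Ihh had a lower mean in Dhh KO ovaries than in controls, but the difference did not pass the test. Its signal was 145, 108, 168 and 139.5 in Dhh KO 1 to 4, against 225, 238, 160.0 and 206 in controls 5 to 8. Of the 4 Dhh KO arrays, 3 were below every control and Dhh KO 3 was above control 7. The mean was 139.9 ± 24.8 (SD, n = 4) in Dhh KO and 207 ± 34.1 (SD, n = 4) in controls, a ratio of 67.6%. The log2 difference was -0.54 (95% confidence interval -1.37 to 0.28, limma adjusted p = 0.649) with all arrays and -0.54 (-1.21 to 0.12, adjusted p = 0.557) without the array labelled Ihh KO 4. The exact permutation test gave p = 0.0571. As a fold the intervals, not adjusted over all probe sets, run from 0.39 to 1.22 with all arrays and from 0.43 to 1.09 without that array. A rise of Ihh by more than 1.22-fold in Dhh KO lay outside both, while no change lay inside both. Dhh KO arrays also differed from controls in RNA 3'/5' bias: the Gapdh 3'/5' ratio was 2.52 ± 0.31 in Dhh KO (2.08 to 2.79, n = 4) and 1.94 ± 0.05 in controls 5 to 8 (n = 4), and its part in the Ihh difference was not tested. In a bulk sample, fewer cells of a type and less RNA per cell cannot be told apart.

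Dhh likewise had a lower mean in Ihh KO ovaries, and this difference did not pass the test either. Probe set 1434959_at gave 709, 527, 636 and 2.96 in Ihh KO 1 to 4, against 811, 621, 1077 and 1085 in controls 5 to 8. Among Ihh KO 1 to 3, Ihh KO 2 was below every control and the others lay inside the range of the controls. The mean was 624 ± 91.7 (SD, n = 3) in Ihh KO 1 to 3 and 898 ± 225 (SD, n = 4) in controls, a ratio of 69.4%. Without the array labelled Ihh KO 4 the log2 difference was -0.50 (95% confidence interval -1.21 to 0.22, limma adjusted p = 0.491), or 0.71-fold (0.43 to 1.17). With it the log2 difference was -1.99 (-3.87 to -0.11, adjusted p = 0.294), a size that 1 array sets. The permutation test of 4 arrays against 4 gave an exact p of 0.0857.

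The weaker Dhh probe set 1422127_at gave the same direction: 41.9, 45.1, 68.1 and 46.9 in Ihh KO 1 to 4, against 86.2, 104, 79.6 and 70.4 in controls 5 to 8. Here all 4 Ihh KO arrays, the one labelled Ihh KO 4 included, were below every control, and the mean of 51.7 ± 14.3 (SD, n = 3) in Ihh KO 1 to 3 was 60.8% of the control mean of 85.1 ± 14.2 (SD, n = 4). The log2 difference was -0.66 (SE 0.41, limma adjusted p = 0.439) without the array labelled Ihh KO 4 and -0.69 (SE 0.37, adjusted p = 0.385) with it. By limma p before adjustment (0.080 with all arrays) it ranked 7270th of 34945 probe sets. In that comparison 15.5% of all probe sets were under 0.05 before adjustment. How many of them lay below every control was not counted, so the separation is a description. On the array labelled Ihh KO 4 the stronger Dhh probe set was at the 4.5th percentile. The weaker one lay among the other Ihh KO arrays and also inside the range of Dhh KO (7.84 to 63.5). The Gapdh 3'/5' ratio was 2.06 ± 0.26 in Ihh KO 1 to 3 (n = 3) and 1.94 ± 0.05 in controls. The summed signal of 6 corpus luteum markers ran over 39949 to 47289 in Ihh KO 1 to 3 and 18513 to 36973 in controls 5 to 8, with no overlap, and over 28090 to 47289 with the array labelled Ihh KO 4, where the ranges overlapped. Of those markers 5 had a higher mean log2 value in Ihh KO 1 to 3, with a median log2 difference of 1.04, and none passed the test. All 7 endothelial markers had a higher mean log2 value in Ihh KO 1 to 3 and in Dhh KO (median log2 difference 0.27 in each), none passed, and their sums overlapped with those of the controls (4913 to 7557 in Ihh KO 1 to 3, 5206 to 7208 in Dhh KO and 4713 to 5803 in controls 5 to 8). The part of these cell types in the lower ligand means was not tested. Both comparisons share controls 5 to 8, so the lower means of Ihh in Dhh KO and of Dhh in Ihh KO are measured against the same 4 arrays. Within set 2 the order of Dhh means was controls, Ihh KO 1 to 3, Dhh KO, and the order of Ihh means was controls, Dhh KO, Ihh KO 1 to 3, with controls and the group next to them not told apart by the test in either order.

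**Figure D2:**
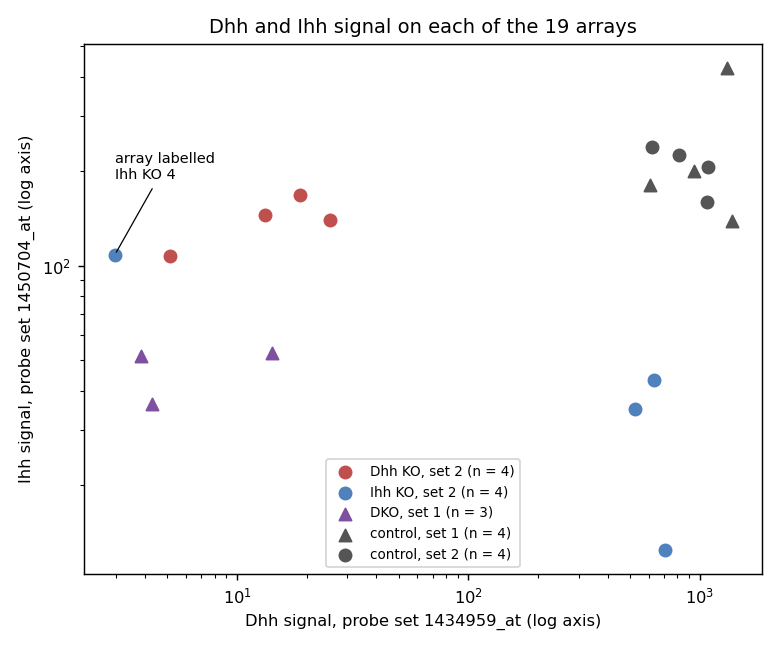
Dhh signal (probe set 1434959_at, horizontal, log axis) against Ihh signal (1450704_at, vertical, log axis) on each array; colours are groups, triangles set 1 and circles set 2. Dhh KO arrays lie at the left with Ihh between 108 and 168, Ihh KO 1 to 3 lie at the lower right with Dhh between 527 and 709, DKO arrays lie at the lower left, and the array labelled Ihh KO 4 lies at the far left with an Ihh signal of 108.

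In DKO ovaries both ligands were low. Dhh probe set 1434959_at gave 3.85, 4.28 and 14.2 in DKO 1 to 3, against 944, 606, 1371 and 1311 in controls 1 to 4. The groups did not overlap, and the signal averaged 7.45 ± 5.86 (SD, n = 3) in DKO and 1058 ± 356 (SD, n = 4) in controls. The DKO mean is close to the 10th percentile of all signals and is not shown to be above background. Ihh gave 51.6, 36.3 and 52.7 in DKO 1 to 3, against 200.2, 180.4, 139 and 425 in controls 1 to 4. The groups did not overlap there either, and the DKO mean was 19.8% of the control mean (46.9 ± 9.15, SD, n = 3, in DKO and 236 ± 129, SD, n = 4, in controls). The log2 difference was -6.20 for Dhh (SE 0.97, limma adjusted p = 0.00281) and -2.06 for Ihh (SE 0.43, adjusted p = 0.0174). With replicate number as a block within set 1 Ihh was -1.74 (adjusted p = 0.0515), so its call was lost, and it was also lost without DKO 2 (-1.91, adjusted p = 0.0641) or DKO 3 (-2.14, adjusted p = 0.0671). The control mean of Ihh in set 1 rests in part on control 4, which read 425.

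The weaker Dhh probe set gave 38.9, 37.2 and 27.8 in DKO 1 to 3, against 56.9, 34.7, 61.1 and 74.2 in controls 1 to 4. These groups overlapped, and its log2 difference of -0.58 (SE 0.40, limma adjusted p = 0.61) did not pass. Of the 5 ligand probe sets, 2 were called in DKO, both lower, where 496 probe sets were called in all (1.42%). The totals were 547 (1.57%) without the array labelled Ihh KO 4 and 262 (0.75%) with the replicate block, and without DKO 3, control 1 or control 3 they were 154, 305 and 263.

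The change of each targeted ligand in DKO was also set against its change in the single knockout. The change of Ihh in DKO minus that in Ihh KO was 0.56 on the log2 scale without the array labelled Ihh KO 4 (95% confidence interval -0.47 to 1.58, limma adjusted p = 0.597) and 0.12 with it (-1.10 to 1.34, adjusted p = 0.939). For Dhh the probe sets went opposite ways, and neither was called. On 1434959_at the change in DKO minus that in Dhh KO was -0.83 (-1.81 to 0.15, adjusted p = 0.421) without that array and -0.83 (-3.60 to 1.94, adjusted p = 0.81) with it. Both mutant groups are near the 10th percentile of all signals on that probe set, so this value sets low signals against low signals and cannot show whether remaining Dhh differed. On the weaker 1422127_at the value was 1.28 (0.11 to 2.46, adjusted p = 0.301) without that array and 1.28 (0.14 to 2.43, adjusted p = 0.293) with it, intervals that leave out 0 before adjustment over all probe sets. For DKO minus Ihh KO, 101 probe sets (0.289%) were called with all arrays and 47 (0.134%) without that array. For DKO minus Dhh KO, 97 (0.278%) were called with all arrays and 103 (0.295%) without it. Both differences hold both control sets, and controls k and k + 4 deviated together (correlation 0.52 to 0.74). The fit treats them as independent, so these intervals and counts leave that link out.

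**Figure D3:**
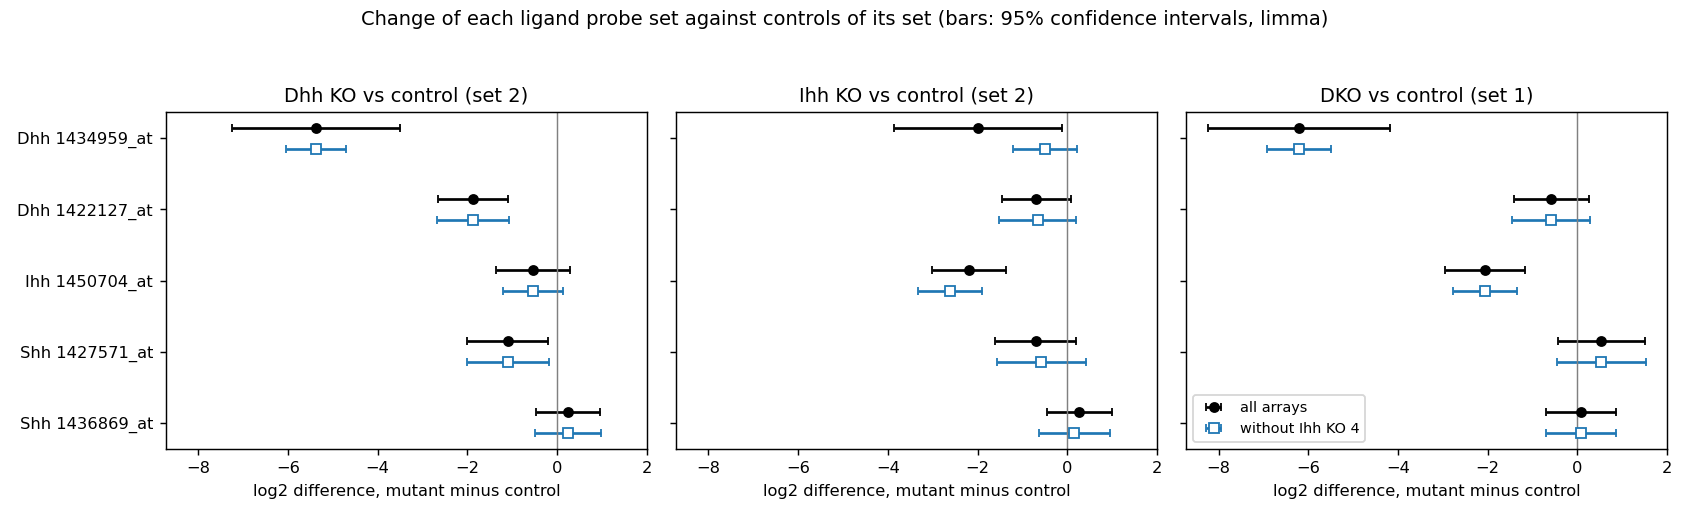
Log2 difference (mutant minus control of the same set, horizontal) of each ligand probe set in Dhh KO, Ihh KO and DKO; filled circles are all arrays, open squares leave out the array labelled Ihh KO 4, and bars are 95% confidence intervals. The targeted ligand lies at -5.37 for Dhh in Dhh KO, while Ihh in Dhh KO (-0.54) and Dhh 1434959_at in Ihh KO without that array (-0.50) have intervals that include 0.

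No difference of Shh passed the test in any mutant group, and its signals were low throughout. Probe set 1436869_at read 3.29, 27.7, 14.0 and 9.82 in Dhh KO 1 to 4 and 16.3, 7.30, 9.69 and 17.3 in Ihh KO 1 to 4, against 9.77, 6.06, 11.9 and 8.48 in controls 5 to 8. In set 1 it read 12.0, 1.48 and 14.9 in DKO 1 to 3, against 4.82, 5.59, 11.1 and 9.05 in controls 1 to 4. The groups overlapped throughout, and every control lay at or under the 12.9th percentile of its array. Its log2 differences were 0.24 in Dhh KO, 0.27 in Ihh KO and 0.08 in DKO (limma adjusted p = 0.836, 0.752 and 0.968).

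The other Shh probe set, 1427571_at, read 12.6, 11.6, 70.9 and 58.9 in Dhh KO 1 to 4 and 70.6, 51.2, 26.5 and 30.3 in Ihh KO 1 to 4, against 95.9, 49.0, 80.0 and 72.6 in controls 5 to 8. In set 1 it read 32.6, 42.5 and 16.7 in DKO 1 to 3, against 12.2, 17.5, 17.6 and 26.2 in controls 1 to 4. Within each comparison the arrays overlapped with the controls, and 2 of the 3 DKO arrays lay above all 4 controls of their set. The log2 differences were -1.10 in Dhh KO (SE 0.43, limma adjusted p = 0.384), -0.70 in Ihh KO (SE 0.43, adjusted p = 0.447) and 0.53 in DKO (SE 0.46, adjusted p = 0.718), and none passed. Set against all 8 controls, the Ihh KO and DKO values turned to 0.13 and -0.31, since the controls themselves differed between the sets.

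The difference between control sets was called for Shh 1427571_at, with no deletion involved. It averaged 18.4 ± 5.8 in controls 1 to 4 and 74.4 ± 19.5 in controls 5 to 8 (SD, n = 4 each), a log2 difference of -1.67 for set 1 minus set 2 (SE 0.43, limma adjusted p = 0.00777), and 26.9% of all probe sets were called in that comparison. Probe sets of the same decile of mean signal were also lower in set 1, with a median of -0.55 and 82.5% of them lower. Dhh 1434959_at differed by 0.20 (SE 0.90, adjusted p = 0.893), Dhh 1422127_at by -0.56 (adjusted p = 0.281), Ihh by 0.07 (SE 0.40, adjusted p = 0.917) and Shh 1436869_at by -0.14 (adjusted p = 0.796). Controls k and k + 4 deviated together, which the fit behind these p-values leaves out. Signals of different probe sets are not compared as amounts, since each probe set has its own response.

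Among the genes that process and release the ligands, a single one passed the test. Of 11 such genes tested, 0 passed in Dhh KO, 0 in Ihh KO with or without the array labelled Ihh KO 4, and 1 in DKO, lower. That gene was Gpc3, a glypican that binds Hedgehog at the cell surface and limits its signalling. It averaged 664 ± 197 in DKO (SD, n = 3) and 1333 ± 353 in controls 1 to 4 (SD, n = 4), a log2 difference of -1.01 (SE 0.23, limma adjusted p = 0.0342), and the call was lost with the replicate block (-0.84, adjusted p = 0.119). The list's median log2 difference was -0.0015 in Dhh KO, 0.02 in Ihh KO without the array labelled Ihh KO 4 and -0.06 in DKO, and the medians of all probe sets were -0.05, -0.10 and 0.04. Over all probe sets 0.0% were called in Dhh KO, 0.0687% in Ihh KO (0.303% without that array) and 1.42% in DKO. Those shares stand beside the counts of the lists that follow as well.

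Of 7 receptors and co-receptors tested, 0 passed in Dhh KO, 2 were lower in Ihh KO without the array labelled Ihh KO 4, and 2 were lower in DKO. The same genes passed in both, Hhip, a decoy receptor and Hedgehog target, and Ptch1, the receptor and a target as well. Hhip averaged 25.5 ± 21.5 in Ihh KO 1 to 3 (SD, n = 3) and 238 ± 36.6 in controls 5 to 8 (SD, n = 4), a log2 difference of -3.10 (SE 0.34, limma adjusted p = 6.63e-04). It was -2.61 (adjusted p = 0.0277) with the array labelled Ihh KO 4, where Hhip read 105 and Ptch1 did not pass (-0.36, adjusted p = 0.102). In Dhh KO Hhip averaged 229.8 ± 39.7 (SD, n = 4), with a log2 difference of -0.05 (SE 0.42, adjusted p = 0.976). In DKO it was -3.02 (SE 0.45, adjusted p = 0.00239) and Ptch1 -0.82 (SE 0.10, adjusted p = 5.49e-04).

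Of 10 transducers and transcription factors, 0 passed in Dhh KO or in Ihh KO and 1 was lower in DKO. This was Gli1, a transcription factor that is itself a Hedgehog target, with 7.3 ± 5.2 in DKO (SD, n = 3) and 122 ± 33.4 in controls 1 to 4 (SD, n = 4). Its log2 difference was -3.19 (SE 0.37, limma adjusted p = 4.01e-04) in DKO, 0.38 (SE 0.34, adjusted p = 0.726) in Dhh KO and -0.69 (adjusted p = 0.341) in Ihh KO without the array labelled Ihh KO 4. The DKO calls of Hhip, Ptch1 and Gli1 held with the replicate block (adjusted p 0.0262, 0.0322 and 0.0341).

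**Figure D4:**
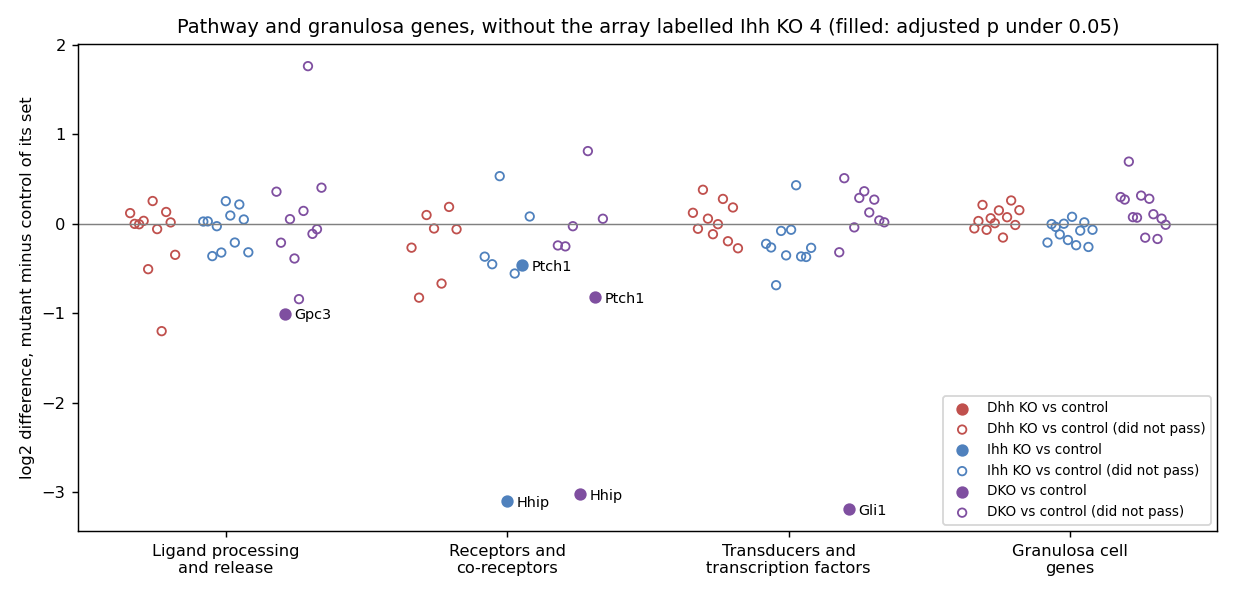
Log2 difference (mutant minus control of the same set, vertical) of each tested gene of 4 lists in Dhh KO, Ihh KO and DKO, without the array labelled Ihh KO 4; filled points have a limma adjusted p under 0.05. Hhip lies near -3 in both Ihh KO and DKO and Gli1 near -3 in DKO, while all granulosa genes lie between -0.26 and 0.69 and none passed.

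No gene of the granulosa cells, which make Dhh and Ihh, passed the test in the fits without a block. Of 12 granulosa genes tested, 0 passed in any mutant group with or without the array labelled Ihh KO 4, and their median log2 differences were 0.05 in Dhh KO, -0.07 in Ihh KO without that array and 0.09 in DKO. With all arrays, 0.0% of all probe sets were called in Dhh KO, 0.0687% in Ihh KO and 1.42% in DKO. A count of 0 of 12 is near those shares and is no result about granulosa cells. Foxl2, the transcription factor that marks granulosa cells, averaged 4375 ± 588 in Dhh KO (SD, n = 4), 4215 ± 552 in Ihh KO 1 to 3 (SD, n = 3) and 4566 ± 398 in controls 5 to 8 (SD, n = 4). In DKO it averaged 4099 ± 296 (SD, n = 3), and 3902 ± 387 in controls 1 to 4 (SD, n = 4). The summed signal of the 12 genes ran over 57054 to 67621 in Dhh KO, 54173 to 61008 in Ihh KO 1 to 3 and 55219 to 64616 in controls 5 to 8, and over 57884 to 78748 in DKO and 59770 to 72232 in controls 1 to 4. These ranges overlapped in each comparison. Esr2, the estrogen receptor of granulosa cells, passed in DKO with the replicate block (0.99, adjusted p = 0.0375) and not without it (0.69, adjusted p = 0.421). Of 12 oocyte genes, 0 passed in any mutant group, with medians of 0.12 in Dhh KO, -0.06 in Ihh KO without the array labelled Ihh KO 4 and 0.35 in DKO. That count is near the shares over all probe sets too.

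Among markers of other cell types, some oviduct, endothelial, corpus luteum and Schwann genes passed the test in DKO and most did not. Of 6 oviduct epithelium markers, 3 were higher in DKO, Wfdc2 by 2.87, Cldn3 by 1.82 and Epcam by 1.31 on the log2 scale (limma adjusted p = 0.00948, 0.0193 and 0.0133), and their summed signal ran over 1424 to 9307 in DKO and 551 to 1080 in controls 1 to 4. Of 7 endothelial markers 1 was lower, Emcn at -0.98 (adjusted p = 0.00851), Cldn5 joined it at -0.64 (adjusted p = 0.0487) in the fit that left out the array labelled Ihh KO 4, and the sums ran over 2528 to 3789.5 in DKO and 4016 to 5286 in controls. Of 6 corpus luteum genes 1 was called lower, Star, which moves cholesterol into mitochondria for steroid synthesis, at -1.79 (adjusted p = 0.00977). Akr1c18 and Sfrp4 were at 0.11 and 0.009 (-1.23 and -1.15 with the replicate block) and did not pass. The sums overlapped, with 15415 to 24982 in DKO and 18807 to 43271 in controls 1 to 4. Of 4 Schwann markers 1 was called higher, Erbb3 at 0.94 (adjusted p = 0.0149). The others, Sox10, Mbp and Foxd3, were at -0.18, 0.007 and 0.74 and did not pass, so Erbb3 alone does not show a change of Schwann cells. Of 6 Sertoli markers 0 passed. With the replicate block, of the 6 markers called with all arrays, Epcam kept its call (adjusted p = 0.0219) and the other 5 lost it (adjusted p 0.0863 to 0.137), and Cldn5 had an adjusted p of 0.168. In Dhh KO and Ihh KO 0 markers of these 5 lists passed, with or without the array labelled Ihh KO 4. Dhh and Ihh were low in all 3 DKO arrays, and all 3 had an oviduct sum above every control of their set. The part of other cell types in the DKO values was not tested.

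Probe sets whose signal ran most like a ligand's were found by Pearson correlation with 22642 probe sets over the 40th percentile of mean signal, gene models with placeholder names left out and each array centred on the control mean of its set, as a description with no test. Over the 8 controls, Dhh 1434959_at ran most like Vegfd, a lymphatic growth factor (r = 0.994), Ibtk (0.988), Aldh1b1, a mitochondrial aldehyde dehydrogenase (0.983), Aco1 (0.983) and Slfn4 (0.980). Ihh ran most like Aurkb, a mitotic kinase (r = 0.978), Gnaq (0.976), Fzd2, a Wnt receptor (0.975), Il12rb2 (0.971) and Pcm1 (0.965). Dhh and Ihh were themselves at r = 0.046 over these 8 arrays, a pooled value that covers 0.26 over controls 1 to 4 and -0.78 over controls 5 to 8. Controls k and k + 4 move together, so the 8 arrays hold fewer independent points than their number, and the coefficients are the highest of many.

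Over all 19 arrays, where each ligand's own deletion is part of its spread, Dhh ran most like Pmp22, a myelin protein also found outside nerve (r = 0.830), Ano6 (0.805), Slc29a1 (0.800), Fmc1 (0.797) and Isy1 (0.770), and Ihh most like Slc30a2, a zinc transporter (0.906), Oca2 (0.893), Prxl2a (0.891), Paqr9 (0.874) and Lrrc8e (0.874). Slc30a2 averaged 79.4 ± 63.8 in Ihh KO 1 to 3 (SD, n = 3) and 349.9 ± 91.2 in controls 5 to 8 (SD, n = 4), a log2 difference of -2.26 (SE 0.36, limma adjusted p = 0.0102) without the array labelled Ihh KO 4. Its choice for likeness to Ihh used these same arrays, so the value is a description. Of the genes chosen in controls alone, Aldh1b1 averaged 561 ± 54.0 in Dhh KO (SD, n = 4), 269 ± 39.3 in Ihh KO 1 to 3 (SD, n = 3) and 694 ± 99.6 in controls 5 to 8 (SD, n = 4). Its log2 difference was -1.34 (SE 0.18, adjusted p = 0.00494) in Ihh KO without the array labelled Ihh KO 4 (with it, the adjusted p was 0.0662) and -1.69 (SE 0.25, adjusted p = 0.00239) in DKO, and it was not called in Dhh KO. The other 9 genes chosen in controls were not called in any mutant group. Over all probe sets at most 1.57% were called in a mutant group in these fits, so 9 uncalled genes say nothing of likeness to a ligand.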

How the data were processed

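Ovary RNA was isolated (PicoPure), amplified (WT-Ovation Pico) and biotinylated (Encore Biotin Module), per the labels' protocols. Each probe set has 1 deposited intensity on each of 19 arrays, a linear value that the submitters' processing notes call MAS5; its version is not given in the sources used here. The values show a trimmed mean of 500 on all arrays once the outer 2% at each end are dropped. The number of arrays limits the precision.

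Deposited values were taken without further normalization to log2(signal + 7.02), where 7.02 is the 10th percentile over the table. This scale understates changes of low signals. There were 45101 probe sets, including 64 Affymetrix control ones. Outside those, 34945 had 1 gene symbol and 932 several, and no probe set with several held a ligand. Symbols were looked up by Entrez identifier in RefSeq (GRCm38.p6, 34741 matched, 0 changed). limma 3.58.1 in R 4.3.3 (lmFit, eBayes with an intensity trend, two-sided, Benjamini-Hochberg at 0.05 over all 34945 probe sets) fitted 5 group means over 19 arrays, with 6 comparisons, and a second fit left out the array labelled Ihh KO 4. Single values also had an exact two-sided permutation test. The fit was tested on simulated data. Figures and tables used Python 3.11.15, numpy 2.4.6, pandas 2.3.3 and matplotlib 3.10.9. No pair of arrays correlated above 0.981, and none was left out as a duplicate. No limit for a duplicate was set, so this value cannot show whether arrays share a source.

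The members, gene lists, tests and alternatives were chosen with earlier results of these data known. Every ligand probe set is named. Other genes are named where called in a list, up to 4 per list and comparison, or among the 5 most like a ligand. Lists used the probe set with the highest mean. Foxl2, Esr2 and the uncalled Sox10, Mbp, Foxd3, Akr1c18 and Sfrp4 were named after their values were seen. Cyp19a1 had no single-gene probe set. Replicate numbers are shared by DKO and controls 1 to 4: same-numbered arrays deviated together (correlation 0.116 to 0.168, every pair over 0.1, other pairs -0.169 to 0.133), which comes from the data and not the labels, so the value with the number as a block is given where it changes a call. DKO and Dhh KO also share numbers, and all 3 such pairs were over 0.1 (0.157 to 0.203, other pairs -0.166 to 0.117). The single knockouts share no number with controls 5 to 8, so for DKO minus Dhh KO the number could only be a random block.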

Additional observations from a re-analysis of the deposited data

Results flagged for a closer look

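Among 25 sets of 4 or 8 arrays and probe sets examined for a lone extreme value, 1 stood out, and chance gives about 1 in 20. Dhh probe set 1434959_at on the array labelled Ihh KO 4 read 2.96, with 709, 527 and 636 on Ihh KO 1 to 3, and the gap to its neighbour was 0.931 of the range of the group. On the same array Ihh read 108, with 12.5 to 43.5 on Ihh KO 1 to 3, and Hhip read 105, with 9.4 to 49.9. The weaker Dhh probe set read 46.9 there, inside the range of 41.9 to 68.1 of the other Ihh KO arrays and also inside that of Dhh KO (7.84 to 63.5). The Ihh signal of that array lay at the low end of the Dhh KO range (108 to 168). Its Hhip signal lay below the Dhh KO range (178 to 265). Ptch1 read 4292, above Ihh KO 1 to 3 (2950 to 3582) and below Dhh KO (4704 to 5421). Aldh1b1 read 617, above both Ihh KO 1 to 3 (233 to 311) and Dhh KO (506 to 608). Lrrc8e (488), Prxl2a (4305) and Oca2 (134) lay above Ihh KO 1 to 3 and inside the Dhh KO range. Paqr9 (128) lay between the ranges and Slc30a2 (361) above both. Lrrc8e, Prxl2a, Oca2, Paqr9 and Slc30a2 were chosen for likeness to Ihh on these same arrays. What this array holds was not tested.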

How the results depend on the processing

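The lower Ihh in Dhh KO kept its direction and stayed short of the threshold under all 22 alternatives run (log2 differences -0.66 to -0.43, adjusted p 0.41 to 0.85). Dhh in Ihh KO was also lower and short of the threshold under all 21 (-2.55 to -0.50, adjusted p 0.20 to 0.49, the smallest difference without the array labelled Ihh KO 4). All but that last fit kept the array's Dhh signal of 2.96, so their shared direction is no separate evidence on Ihh KO 1 to 3. No other alternative was run on Ihh KO 1 to 3 alone. For results below whose call changed, the cause was not tested. Ihh in Ihh KO lost its call with quantile normalization (-2.05), median centring (-2.06), no pseudocount (-2.44), and at -2.18 with the filter at the 40th percentile, 1 probe set per gene, arrays of the set only and matched controls as a block; leaving out 1 array gave -2.62 to -1.76. Dhh in Dhh KO passed with all 8 controls (-5.47), by exact permutation (-5.37) and without control 8 (-5.27, adjusted p = 0.0416) or the array labelled Ihh KO 4, and ran from -5.58 to -5.11 when leaving out 1 array. Ihh in DKO lost its call with arrays of the set only (-2.06) and the replicate block fixed within set 1 (-1.74, control 4 then having no partner), and ran from -2.26 to -1.74 when leaving out 1 array. A random replicate block changed no call of a ligand, whether over all arrays or, chosen after seeing the data, among DKO, Dhh KO and controls 1 to 4 alone. With the second, Dhh in DKO minus Dhh KO was -0.80 on 1434959_at and 1.28 on 1422127_at (adjusted p = 0.80 and 0.27), with 120 probe sets called in place of 97. Shh between control sets lost its call with quantile normalization (-1.10). Against all 8 controls Shh turned to 0.13 in Ihh KO and -0.31 in DKO. The Ihh change in DKO minus that in Ihh KO turned to -0.0725 with median centring and ran from -0.30 to 0.56 when leaving out 1 array, and Ihh between control sets ran from -0.25 to 0.27; neither was called in any of these. Of probe sets called, Dhh KO had 4 with all 8 controls and 0 to 58 when leaving out 1 array, the most without control 8. Ihh KO had 12 with median centring, 167 with the pseudocount at the 25th percentile, 13 with no pseudocount, 8 and 0 with the filter at the 40th and 60th percentile, 7 with 1 probe set per gene, 3 with arrays of the set only, 168 with no trend, 5 with all 8 controls, 6 with matched controls as a block, and 0 to 926 when leaving out 1 array. DKO had 87 with arrays of the set only, 886 with all 8 controls, 262 with the replicate block fixed within set 1, and 154 to 653 when leaving out 1 array. The permutation test was not run for DKO, where 3 arrays against 4 cannot go below p = 0.0571, and Shh had no value under the filters. Low signals limit Shh, the weaker Dhh probe set and Dhh in Dhh KO and DKO.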
